A study of Rattus norvegicus with 20 samples.

Results

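The genes described are 10 circadian clock and clock output genes: the activators Bmal1 (also written Arntl) and Clock, the repressors Per1, Per2, Per3 and Cry2, the nuclear receptors Nr1d1 and Nr1d2, and the output transcription factors Dbp and Nfil3. They were taken from the array's probe annotation as the probe sets assigned to exactly 1 of these symbols, which gave 18 of the 31099 probe sets and 10 of the 14218 genes named. The main value of a gene is its probe set with the highest mean over all 20 arrays, and the other probe sets are given beside it. A filter on low values, set on the mean over all arrays, kept 13 of the 18 probe sets, among them the main probe set of each of the 10 genes.

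The tissue was central amygdala from P rats, which are selectively bred to prefer alcohol, and each animal gave 1 array. The ethanol group was 10 P rats with access to solutions of 15% and 30% ethanol in adolescence. The water group was 10 P rats that had water only. The sources used here give no genotype beyond the line, no age, no sex, no clock time at which tissue was taken and no interval since the last drink. The values are log2 summaries per probe set made by the authors with RMA, a method that corrects background, normalizes between arrays and combines the probes of a set.

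In mammals BMAL1 and CLOCK form a dimer that binds E-box elements and activates the Per and Cry genes, Nr1d1, Nr1d2 and Dbp. PER and CRY proteins then block that dimer, and the REV-ERB receptors encoded by Nr1d1 and Nr1d2 repress Bmal1, Clock and Nfil3 through an element called RORE. DBP activates and NFIL3 represses genes with a D-box, Per genes included. In strongly rhythmic tissues transcripts of the E-box arm and of the RORE arm peak at different times of day. Outside the master clock in the hypothalamus, the central amygdala is known for daily rhythms of PER2 protein that depend on the adrenal glands.

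Matches to these elements in rat promoters of RefSeq, build GRCr8, are printed here to show the letters of the elements. The arms used below are fixed lists of genes and were not defined from these matches. The table held 12 promoter windows for the 10 genes, each from 250 bases before to 50 after a transcript start. All windows in the table were searched on both strands for the E-box CACGTG, its variant CACGTT, the RORE core TAGGTCA or TGGGTCA, and the D-box TTATGTAA. Capitals mark the matched letters, and each stretch is written along the strand of the gene. The first is the RORE core of Bmal1 at chr1:176766301-176766327 (plus strand), the next are the D-box and E-box variant of Per2 at chr9:99497167-99497196 and chr9:99497039-99497066 (minus strand). They are followed by an E-box of Nr1d1 at chr10:84229629-84229656 and an E-box variant of Cry2, matched as its reverse complement, at chr3:98860633-98860660 (both minus strand).
Bmal1 RORE core: aaggcagaaagTAGGTCAgggacggag
Per2 D-box: ccatgtgcgtcTTATGTAAagagagcgacg
Per2 E-box variant: acgcgcgcggtCACGTTttccactatgt
Nr1d1 E-box: gtcagctcccaCACGTGtctggggatcc
Cry2 E-box variant: cacatggtgggAACGTGagggggcgggg

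The RORE core was found in 1 of the 12 member windows, that of Bmal1, and in 6.6% of all 33469 windows. The D-box was found in 1 of the 12 (Per2) and in 0.893% of all. The E-box CACGTG was found in 1 of the 12 (Nr1d1) and in 6.42% of all, and the variant CACGTT in 3 of the 12 (Cry2, Nr1d1 and Per2) and in 4.83% of all. A match describes letters in a short window, and the absence of one says only that these letters are not in it.

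The array medians lay between 7.92 and 7.96, and the arrays of ethanol animal 5 and water animals 15 and 18 stood apart from the rest by their mean correlation with the other arrays. All 8 central amygdala markers fixed for the check passed the filter. The mean levels of the neuropeptide gene Penk, the GABA synthesis gene Gad1 and Sst lay above those of 99.8%, 99.6% and 98.3% of probe sets. Gad2, Nts and Tac3 lay above 95.7%, 94.45% and 89.1%, and Crh and Prkcd above 75.3% and 74.0%. Markers of other cells and regions were also present. The striatal markers ran from above 65.65% of probe sets (Drd2) to above 87.85% (Ppp1r1b). The myelin score, the mean of 9 markers, ranged over 11.75 to 13.23 in ethanol animals and 12.47 to 13.48 in water animals. The choroid plexus score, the mean of 2 markers above the filter, ranged over 6.25 to 13.95 in ethanol and 6.69 to 14.46 in water animals. Ethanol animals averaged 7.91 ± 2.31 and water animals 9.94 ± 2.82 (SD, n = 10 each), and the score was lower with ethanol in each run, at differences of -2.14, -2.14 and -1.57, so it moved with the group comparison. The myelin score differed by -0.36 between the group means, with -0.37, -0.73 and 0.39 in the runs. The striatal score ranged over 9.21 to 10.99 in ethanol and 9.43 to 10.69 in water animals. In a bulk dissection fewer cells of a type and less RNA per cell cannot be told apart. In accession order the ethanol and water animals alternate in 3 runs with 4, 4 and 2 animals of each group. No label calls these runs a batch, and values within them are given below.

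Whether clock transcripts differ in this tissue after drinking in adolescence was the question of the group comparison. None of the 10 genes passed limma's test adjusted over all 18625 probe sets at 0.05, a threshold that 0.0215% of all tested probe sets passed. Nfil3 had a lower mean with ethanol and Dbp and Nr1d2 had higher means, and these 3 had the smallest p-values of the members. At an unadjusted p under 0.05 there were 4 of the 10 main probe sets, those of Nfil3, Dbp, Nr1d2 and Clock, against 12.8% of all probe sets tested. Dbp, Nr1d2 and Clock were on the higher side, where 7.37% of all probe sets lay, and Nfil3 on the lower side, where 5.48% lay. The members were chosen with results of these data known, so this count is a description. The median log2 difference of the 10 genes was 0.02, the same to 2 decimals as that of all probe sets tested (0.02). In each of the 10 genes the values of ethanol and water animals overlapped, as they did in all but 0.0268% of the probe sets tested.

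**Figure D1:**
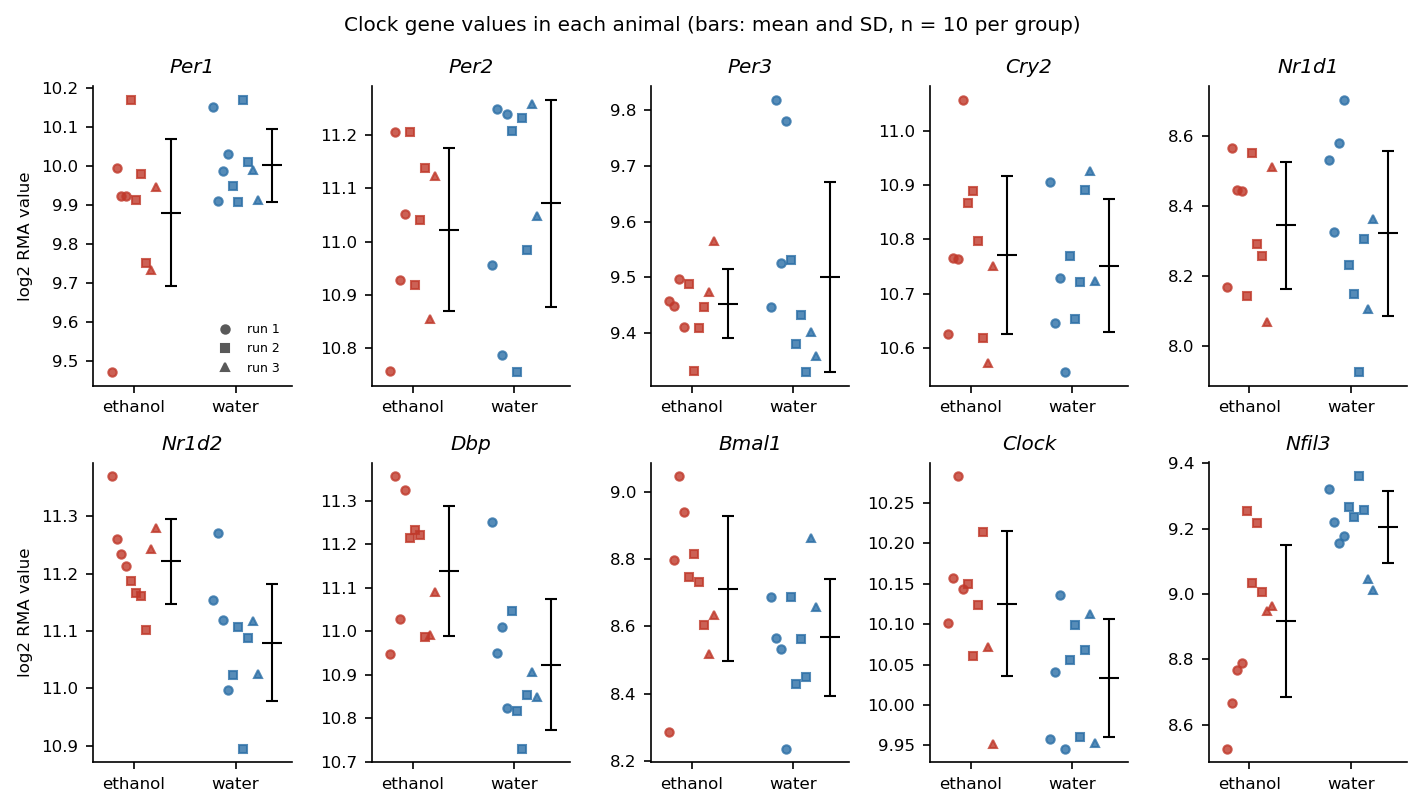
Log2 RMA value of the main probe set of each clock gene in every animal, ethanol left and water right, with mean and SD (n = 10 per group) and the marker shape giving the run of the accession order. Nfil3 sits lower in ethanol animals, at 8.92 against 9.21 on average, while Dbp and Nr1d2 sit higher, and the groups overlap in every panel.

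Bmal1 encodes the activator whose loss stops the mammalian clock. Its lowest, median and highest log2 values were 8.29, 8.74 and 9.05 in ethanol animals, against 8.24, 8.56 and 8.86 in water animals. The ranges overlapped over most of their length, and 8 of 10 ethanol animals lay above the water mean. The log2 difference was 0.14 (SE 0.083, limma adjusted p = 0.457). Run 1 gave 0.26, run 2 gave 0.19 and run 3, with 2 animals per group, gave -0.18. It was 0.06 with the myelin score and 0.22 with the pan-neuronal score as a covariate, and 0.07 in runs 2 and 3 alone.

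Clock encodes the DNA-binding partner of BMAL1. Its main probe set gave 9.95, 10.13 and 10.28 as lowest, median and highest log2 value in ethanol animals, against 9.95, 10.05 and 10.14 in water animals. In 9 of 10 ethanol animals it lay above the water mean, with 5 above every water animal. Ethanol minus water was 0.09 (SE 0.041, limma adjusted p = 0.360). A second probe set above the filter gave -0.01 (SE 0.035), and the 2 probe sets were correlated at 0.16 over the 20 animals after centring on group means. The difference of the main probe set was thus not found in the other, and the 2 varied largely apart. The 2 dim Clock probe sets below the filter gave 0.06 and 0.04 in the fit with no filter. The mean of all Clock probe sets differed by 0.05, and the main probe set by 0.05 in runs 2 and 3 alone. Clock was also among the steadiest transcripts, with a within-group SD of 0.082 log2 units that only 8.23% of the tested probe sets undercut.

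Per1 encodes a repressor of the clock that also responds rapidly to glucocorticoids and to neuronal activity. Its log2 values were 9.47, 9.92 and 10.17 (lowest, median, highest) in ethanol animals, against 9.91, 9.99 and 10.17 in water animals. The low end of the ethanol group was set by animal 1, and 3 ethanol animals lay below every water animal. The log2 difference was -0.12 (SE 0.066, limma adjusted p = 0.432), with -0.19, -0.06 and -0.11 in the 3 runs. It was -0.08 without ethanol animal 1, -0.07 in runs 2 and 3 alone and -0.07 with the choroid plexus score as a covariate. With the pan-neuronal score as a covariate it was -0.04, and this score had a mean of 12.11 in the 10 ethanol animals (SD 0.13) and 11.98 in the 10 water animals (SD 0.14). Its part in the result was not tested.

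Per2 and Per3 encode the other PER repressors. Per2 ran over 10.76, 11.05 and 11.21 in ethanol animals, against 10.76, 11.13 and 11.26 in water animals, on the log2 scale. Both groups spanned nearly the same range, and the log2 difference was -0.05 (SE 0.075, limma adjusted p = 0.801). A second Per2 probe set gave -0.02 (SE 0.054). Per3 ran over 9.33, 9.45 and 9.56 in ethanol animals, against 9.33, 9.44 and 9.82 in water animals. Water animals 13 and 15, at 9.82 and 9.78, lay above all ethanol animals, and the medians were close. The Per3 difference was -0.05 (SE 0.058, limma adjusted p = 0.739), with -0.19, 0.0004 and 0.14 in the 3 runs. A dim second probe set of Per3, below the filter, gave 0.14 (SE 0.050) in the fit with no filter, opposite in sign to the main one.

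Cry2 encodes the cryptochrome that joins PER in repression. Its lowest, median and highest log2 values were 10.57, 10.76 and 11.06 in ethanol animals, against 10.56, 10.73 and 10.92 in water animals. These groups spanned nearly the same range. Ethanol minus water was 0.02 (SE 0.060, limma adjusted p = 0.915), and it changed sign in several settings. A dim second probe set below the filter gave 0.09 (SE 0.065) in the fit with no filter.

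Nr1d1 and Nr1d2 encode REV-ERB alpha and beta, heme-binding repressors that link the clock to metabolism. Nr1d1 ran over 8.07, 8.37 and 8.56 in ethanol animals, against 7.92, 8.32 and 8.70 in water animals, on the log2 scale. It was the most variable member, with a within-group SD of 0.21 log2 units, and 5 of 10 ethanol animals lay above the water mean. The log2 difference was 0.02 (SE 0.089, limma adjusted p = 0.934).

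Nr1d2 ran over 11.10, 11.22 and 11.37 in ethanol animals, against 10.89, 11.10 and 11.27 in water animals, on the log2 scale. All 10 ethanol animals lay above the water mean, although 8 of them stayed within the water range. Ethanol minus water was 0.14 (SE 0.043), a 1.10-fold higher level, with a limma adjusted p of 0.258. A second probe set above the filter gave 0.17 (SE 0.071) and another, below the filter, gave 0.13 (SE 0.079), so the 3 probe sets had the same sign. Over the 20 animals, after centring on group means, the main probe set was correlated with the second at 0.57 and with the dim one at 0.04. The differences within the 3 runs were 0.13, 0.13 and 0.19.

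Dbp encodes a PAR bZIP activator whose transcript is one of the most rhythmic in peripheral tissues. It ran over 10.95, 11.15 and 11.36 in ethanol animals, against 10.73, 10.88 and 11.25 in water animals, on the log2 scale. All 10 ethanol animals lay above the water mean, and 2 lay above the highest water animal, number 12. Ethanol animals averaged 11.14 ± 0.15 and water animals 10.92 ± 0.15 (SD, n = 10 each). The log2 difference was 0.22 (SE 0.066), a 1.16-fold higher level, with a limma adjusted p of 0.258. Within the 3 runs it was 0.16, 0.30 and 0.16. Leaving out single animals gave 0.19 to 0.25, with limma adjusted p-values of 0.149 to 0.458.

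Nfil3 encodes E4BP4, the repressor that competes with DBP at D-boxes. Its lowest, median and highest log2 values were 8.53, 8.95 and 9.26 in ethanol animals, against 9.01, 9.23 and 9.36 in water animals. In 7 of 10 ethanol animals it lay below every water animal, while ethanol animals 5 and 7, at 9.26 and 9.22, lay above the water mean. Ethanol animals averaged 8.92 ± 0.23 and water animals 9.21 ± 0.11 (SD, n = 10 each). Ethanol minus water was -0.29 (SE 0.078), a 1.22-fold lower level with ethanol, with a limma adjusted p of 0.239. In the order of p-values Nfil3 was number 104 of the 18625 probe sets.

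**Figure D2:**
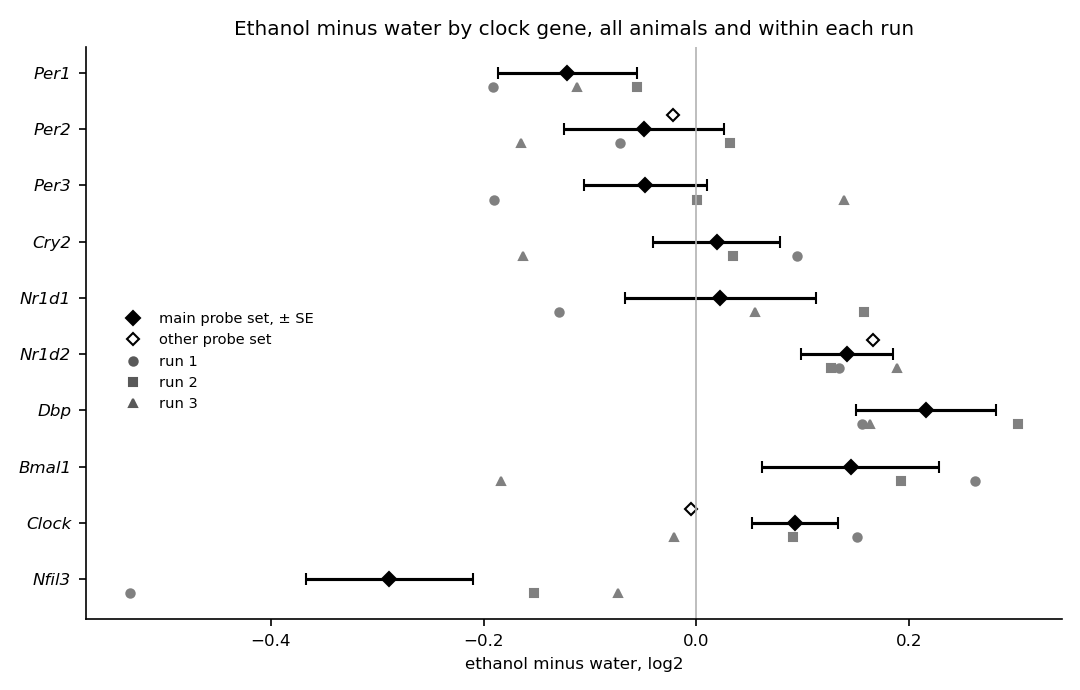
Ethanol minus water on the log2 scale for each clock gene: filled diamonds are the main probe set over all animals with SE, open diamonds are other probe sets above the filter, and grey symbols are the 3 runs. Dbp (0.22), Nr1d2 (0.14), Nfil3 (-0.29) and Per1 (-0.12) keep their sign in each run, while Bmal1, Clock and Cry2 turn in the last run.

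The Nfil3 difference was larger in the first run than in the others. In the first run ethanol animals 1, 2, 3 and 4 were at 8.53, 8.67, 8.77 and 8.79, and water animals 12, 13, 14 and 15 were at 9.32, 9.22, 9.16 and 9.18. The difference in this run was -0.53. In the second run ethanol animals 5, 6, 7 and 8 were at 9.26, 9.03, 9.22 and 9.01, and water animals 16, 17, 18 and 19 were at 9.27, 9.24, 9.36 and 9.26. These ranges overlapped, with a difference of -0.15. In the last run ethanol animals 9 and 10 were at 8.95 and 8.96 and water animals 20 and 21 at 9.05 and 9.01, a difference of -0.07. Runs 2 and 3 taken alone, which was decided once the values were known, gave -0.13 (SE 0.076, limma adjusted p = 0.709). A limma test of the run by ethanol terms, also added after seeing the data, gave an unadjusted p of 0.00107 for Nfil3 and a limma adjusted p of 0.673. Of all probe sets tested 7.21% had an unadjusted p under 0.05 in that test, and Nfil3 was the only main probe set of the 10 genes that did.

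**Figure D3:**
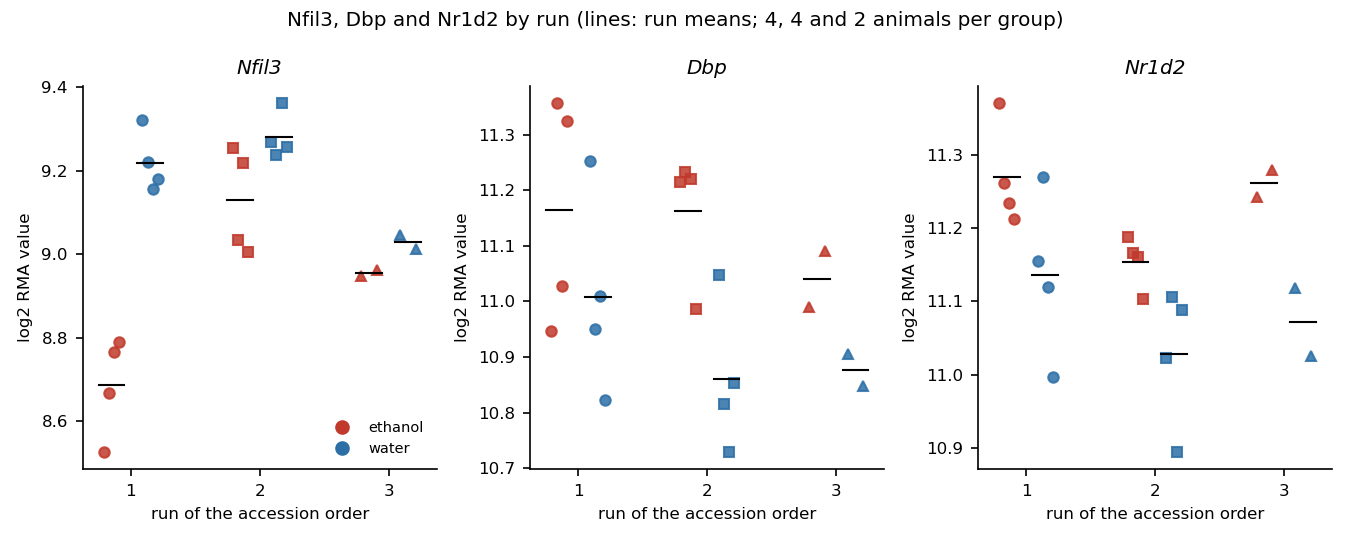
Log2 RMA values of Nfil3, Dbp and Nr1d2 by run of the accession order, ethanol left of water in each run, with a line at the mean of each group in that run. Nfil3 is 0.53 lower with ethanol in the first run and 0.15 and 0.07 lower in the others, whereas Dbp and Nr1d2 are higher with ethanol in each run.

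Dbp and Nr1d2 kept their size in that setting, at 0.26 (SE 0.065) and 0.15 (SE 0.050) over runs 2 and 3, and neither was called (limma adjusted p = 0.645 and 0.705). Without the 3 arrays that stood apart the differences were -0.31 for Nfil3, 0.17 for Dbp and 0.11 for Nr1d2. With the choroid plexus score as a covariate, added after seeing the data, they were -0.24, 0.21 and 0.11, and with the astrocyte score -0.21, 0.24 and 0.14. The astrocyte score, the mean of 7 markers, ranged over 12.27 to 12.58 in ethanol and 12.33 to 12.68 in water animals. Its means were 12.4 (SD 0.10) and 12.53 (SD 0.12), a difference of -0.13, with -0.24, -0.11 and 0.02 in the runs. With this score as a covariate the limma adjusted p was 0.9997 for each of the 10 genes. The unadjusted limma p-values were 0.031 for Nfil3, 0.0057 for Dbp and 0.016 for Nr1d2. In this setting 805 of the 18625 probe sets had an unadjusted p under 0.05. The part of the astrocyte score in these differences was not tested further.

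The other genes of the clock machinery gave no call. Of 29 listed genes 23 were measured above the filter. Of these 17 had a higher and 6 a lower mean with ethanol, at a median log2 difference of 0.03, against 0.02 over all probe sets tested. Over all probe sets tested 57.8% had a higher mean with ethanol. At an unadjusted p under 0.05 there were 0 of the 23, against 12.8% of all, and limma adjusted p-values ran from 0.401 to 0.990. On the higher side the smallest p-values belonged to Tef, a PAR bZIP relative of Dbp, at 0.10 (SE 0.051), to the mitotic kinase gene Wee1 at 0.13 (SE 0.068), to Btrc at 0.11 (SE 0.064) and to Fbxw11 at 0.05 (SE 0.034). Btrc and Fbxw11 encode the F-box proteins that mark PER for degradation. On the lower side they belonged to Nono, a partner of PER, at -0.07 (SE 0.039), to the RORE-binding receptor gene Rorb at -0.12 (SE 0.084), to the casein kinase gene Csnk1d at -0.04 (SE 0.042) and to the deubiquitinase gene Usp2 at -0.15 (SE 0.16). Cry1, the other cryptochrome, was at -0.04 (SE 0.056), and Hlf, another PAR bZIP gene, at 0.04 (SE 0.12).

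The covariation of the clock genes among animals was measured after centring each gene on its group mean, so that the difference between groups plays no part. The 7 genes Per1, Per2, Per3, Cry2, Nr1d1, Nr1d2 and Dbp were taken as the E-box arm and Bmal1, Clock and Nfil3 as the RORE arm. Correlations between the arms had both signs. Of the 21 pairs between arms 12 were correlated positively and 9 negatively, with a median Pearson r of 0.07. The median was 0.16 in the 21 pairs within the E-box arm. The 3 pairs within the RORE arm had a median of 0.05 (-0.15 to 0.35), with 0.17 in ethanol and -0.20 in water animals. The mean of the RORE arm thus joins genes that were weakly correlated with each other. The mean of the E-box arm and the mean of the RORE arm were correlated at 0.38 over 20 animals, at 0.54 within ethanol animals and at 0.02 within water animals. The difference between these groups was not tested. The arm correlation was 0.61 in run 1 and 0.75 in run 2, and the last run, with 4 animals, is too small for one. It was 0.09 without ethanol animal 1 and 0.50 without water animal 15.

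**Figure D4:**
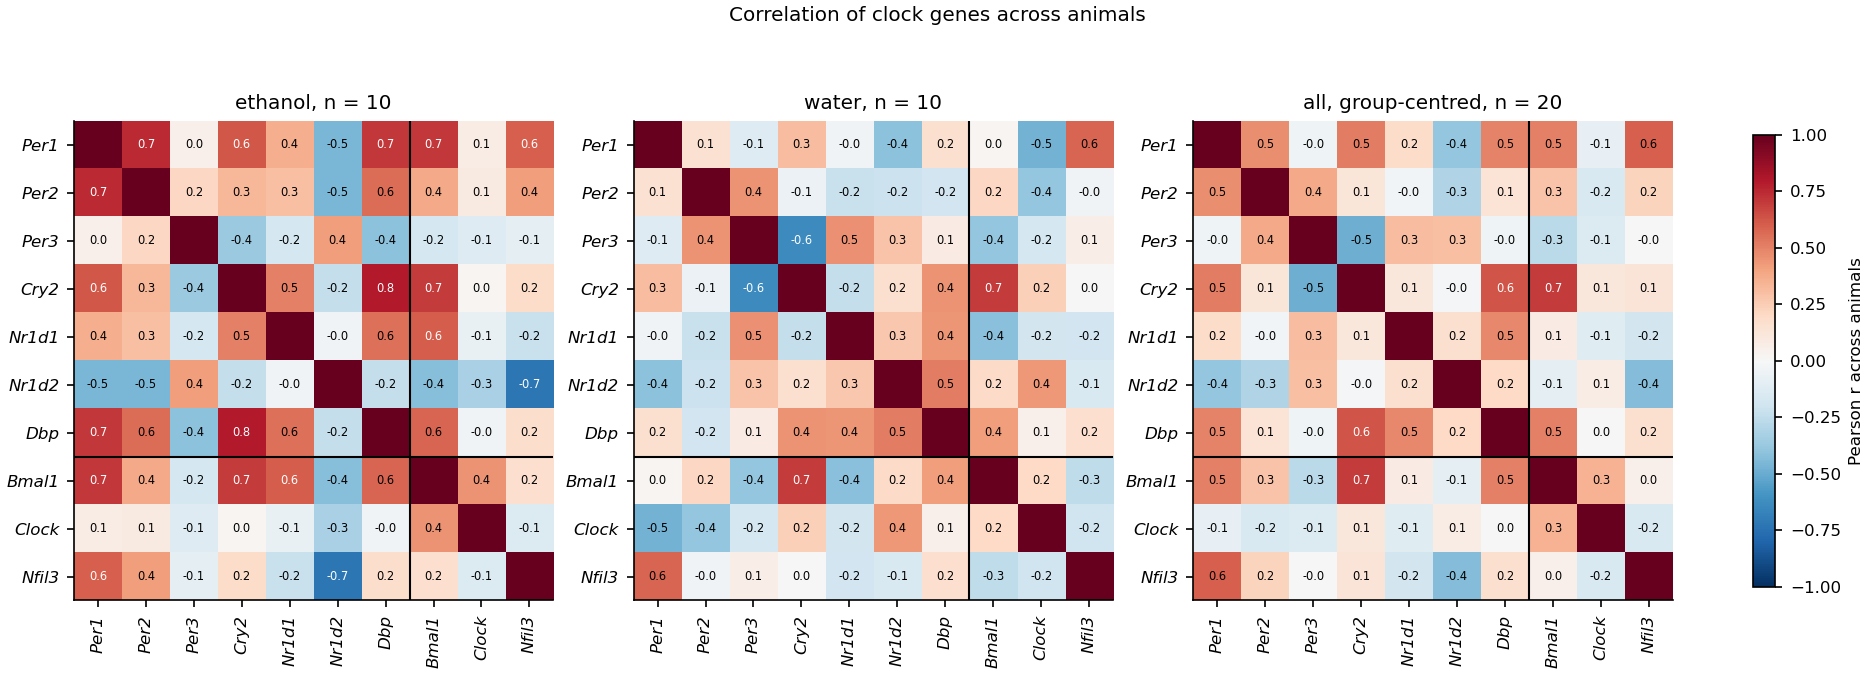
Pearson correlation of the main probe sets of the 10 clock genes across ethanol animals, across water animals and across all animals after centring on group means, on a scale from blue (negative) to red (positive), with black lines between the E-box arm and the RORE arm. Bmal1 and Cry2 are correlated at 0.70 in all 3 panels, and both signs occur between the arms.

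Among 45 pairs in each of 3 sets of animals, 135 correlations in all, none passed a two-sided permutation test adjusted over the 135. At an unadjusted p under 0.05 there were 19 by Pearson and 13 by Spearman. By Pearson 11 of these were over all animals, 6 within ethanol and 2 within water animals. The set of all animals holds those of the other sets, so a pair can count more than once. The share of all gene pairs under that threshold was not counted, so these numbers are a description. Bmal1 and Cry2 had the largest group-centred correlation, at a Pearson r of 0.70 (permutation p = 0.00133, adjusted 0.180) and a Spearman rho of 0.72 (permutation p = 0.00073, adjusted 0.0918). It was the same in both groups, at 0.70 in ethanol and 0.70 in water animals. Within groups, without the 2 animals farthest out in Cry2, it was 0.62 in ethanol and 0.46 in water animals. Without water animal 15 it was 0.52 in water animals. Run 1 gave 0.70 and run 2 gave 0.45. Over all animals r was 0.61 without the 2 farthest out in Cry2 and 0.65 without the arrays that stood apart. With the mean of all probe sets of each gene, which brings in the dim Cry2 probe set, it was 0.45 (permutation p = 0.0451, adjusted 0.358). Leaving out ethanol animal 3 gave 0.78 with an adjusted permutation p of 0.0270, the only animal whose omission brought this pair under 0.05. Ordered by their correlation with Bmal1, the 10158 other genes tested had Cry2 at place 71 from the top.

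Cry2 and Dbp, both in the E-box arm, were correlated at 0.63 (permutation p = 0.00358, adjusted 0.232; rho 0.70, permutation p = 0.00136, adjusted 0.0918). Run 1 gave 0.81 and run 2 gave 0.61, with 0.64 without the 2 animals farthest out in Cry2. It was 0.79 in ethanol and 0.45 in water animals, a difference that was not tested, and 0.18 in water animals without the 2 farthest out. With the mean of all probe sets of each gene it was 0.34 (permutation p = 0.151, adjusted 0.645). Dbp and Bmal1, which the clock model places in different arms, were correlated at 0.50 (permutation p = 0.0278, adjusted 0.268; rho 0.57, permutation p = 0.0126, adjusted 0.285), with 0.60 and 0.75 in those runs. The 3 correlations among Cry2, Dbp and Bmal1 were thus positive, and none passed the adjusted test. Nr1d1, whose product represses Bmal1, was correlated with Bmal1 at 0.08 over all animals and at 0.33 without water animal 15. That pair was at 0.60 in ethanol and at -0.42 in water animals, a difference that was not tested. Nr1d1 was correlated with Nfil3 at -0.19 over all animals, at -0.22 in ethanol and at -0.19 in water animals. Pairs of the 45 with r of at least 0.6 numbered 2, or 4.44%, against 3.8% of all pairs of the 10159 genes tested, and pairs at -0.6 or below numbered 0, against 2.51%. The share of strong pairs among clock genes was close to that of any pair of genes.

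**Figure D5:**
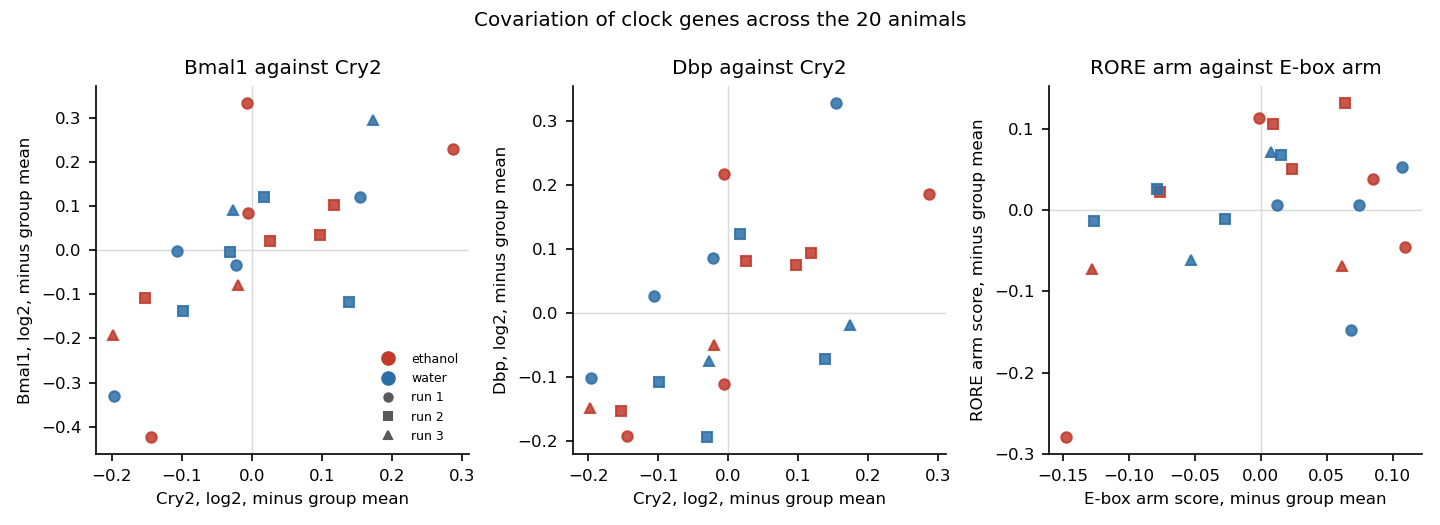
Group-centred log2 values of Bmal1 against Cry2 and of Dbp against Cry2, and of the mean of the RORE arm against that of the E-box arm, with 1 point per animal, colour for the group and shape for the run. The first 2 relations run upward through both groups (r 0.70 and 0.63), and in the panel of the arms ethanol animal 1 lies lowest on both axes (r 0.38 with it, 0.09 without).

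Some correlations changed in size when few animals were left out. Per1 and Nfil3 were correlated at 0.60 (permutation p = 0.0190, adjusted 0.268; rho 0.42, permutation p = 0.0891, adjusted 0.540), with 0.79 and 0.89 in the first and second run. The correlation was 0.38 without ethanol animal 1. Without the 2 animals farthest out in Per1 it was 0.15, and with all animals centred on run and group it was 0.81. Nr1d2 and Nfil3 had the largest negative correlation between the arms, at -0.44 (permutation p = 0.0328, adjusted 0.276; rho -0.47, permutation p = 0.0372, adjusted 0.419). Within groups it was -0.72 in ethanol and -0.15 in water animals, a difference that was not tested. Run 1 gave -0.29, run 2 gave -0.13 and all animals centred on run and group gave -0.19. The correlation was -0.28 without ethanol animal 1, -0.50 without the 2 animals farthest out in Nr1d2 and -0.25 with the mean of all probe sets of each gene. Ethanol animal 1 had the lowest Bmal1, Per1, Per2, Dbp and Nfil3 values and the highest Nr1d2 value of the ethanol group. The same animal had the highest myelin score (13.23) and the lowest striatal score (9.21) of that group, whose part in the clock values was not tested.

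Marker scores of other cells were set against the members in the same way. Of 40 group-centred correlations of the 10 genes with the myelin, astrocyte, pan-neuronal and choroid plexus scores, 0 passed by Pearson after adjustment over the 40. By Pearson 5 had an unadjusted permutation p under 0.05. The share of all genes tested that reached this with these scores was not counted, so the number is a description. By Spearman the smallest adjusted permutation p was 0.05, at the threshold, for Per1 with the pan-neuronal score. Per1 was correlated with the pan-neuronal score at -0.59 (permutation p = 0.008, adjusted 0.320) and a rho of -0.68 (permutation p = 0.00125, adjusted 0.05), and at -0.51 without the 2 animals farthest out in the score. Bmal1 was correlated with the myelin score at -0.50 (permutation p = 0.0359, adjusted 0.400; rho -0.48, permutation p = 0.0379, adjusted 0.409), which became -0.22 without the 2 animals farthest out. Nr1d1 was correlated with the myelin score at -0.45 (permutation p = 0.0441, adjusted 0.400; rho -0.46, permutation p = 0.0444, adjusted 0.409), which became -0.63 without those 2. The choroid plexus score gave 0.49 with Per2 and -0.47 with Nr1d2, and 0.37 and -0.32 without the 2 animals farthest out. Scores of the central amygdala itself and of neighbouring regions were examined after seeing these data, with adjustment over 30 correlations. Of these 0 passed and 5 had an unadjusted permutation p under 0.05 by Pearson. For these scores too the share of all genes tested was not counted. Per3 was correlated with the central amygdala score at -0.68 (permutation p = 0.00423, adjusted 0.0635; rho -0.68, permutation p = 0.00175, adjusted 0.0525), at -0.78 in ethanol and -0.69 in water animals and at -0.88 and -0.96 in the first and second run. Per2 was correlated with the score of cortex and basolateral amygdala at 0.66 (permutation p = 0.00286, adjusted 0.0635; rho 0.63, permutation p = 0.00523, adjusted 0.0785), at 0.33 in ethanol and 0.89 in water animals and at 0.64 and 0.58 in those runs. Without the 2 animals farthest out the Per3 value was -0.60 and the Per2 value 0.77. Per1 was correlated with the striatal score at 0.64 (permutation p = 0.00865, adjusted 0.0865; rho 0.41, permutation p = 0.0823, adjusted 0.47), at 0.84 in ethanol and 0.15 in water animals, and at 0.40 without the 2 animals farthest out. The differences between groups were not tested. The other unadjusted results were Per2 with the striatal score at 0.53 and Bmal1 with the cortex and basolateral amygdala score at 0.51.

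The genes whose values among the 20 animals were most like those of Bmal1 were St3gal5, a ganglioside synthesis gene, at a group-centred Pearson r of 0.87, Ddn, which encodes the dendritic protein dendrin, at 0.86, Insyn1, which encodes a protein of inhibitory synapses, at 0.85, Itm2c at 0.84 and Abr at 0.83. The most opposite were Paqr7 (-0.81) and the nuclear transport genes Tnpo1 (-0.80) and Nup58 (-0.79). The genes most like Dbp were Ipo13 at 0.79, Fam171a1 at 0.79, Ccdc106 at 0.78, Mknk1 at 0.76 and Urb1 at 0.76. The most opposite to Dbp were Snrpn (-0.74), Zxda (-0.73) and Fchsd1 (-0.69). None of these 16 genes is a clock member. All are the extremes of 10158 correlations over arrays that share tissue makeup, and they are given as a description.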

How the data were processed

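The authors deposited log2 values per probe set of an Affymetrix rat array, summarised with RMA per the submitters' processing notes, which name no version. That the scale is log2 follows from their range, 3.82 to 16.16. The labels' protocols name Trizol, then RNeasy, for the RNA and an Affymetrix 3' IVT kit for labelling. Probe sets were named from GEO's platform annotation (1 symbol for 20826, several for 436, none for 9780, and 57 controls).

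Probe sets with a mean above the 40th percentile of non-control probe sets (log2 7.14) were kept, which left 18625. The group difference came from limma 3.58.1 under R 4.3.3, with lmFit and eBayes, as two-sided p-values adjusted by Benjamini-Hochberg over these probe sets; members below the filter were read from the fit with no filter. Over all probe sets the difference had a median SE of 0.0624, and the number of arrays limits the precision. Fold values are 2 to the power of the difference.

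Correlations used the main probe sets, with 100000 permutations within groups (20000 in alternatives), two-sided. Scores are means of markers above the filter. The labels number 20 separate animals with no pairing. A run starts where the accession order turns back to ethanol; no label names runs. Members, lists, tests and alternatives were chosen with earlier results of these data known. All members are named; of the other clock genes up to 4 per direction with the smallest p, and Cry1 and Hlf were chosen after their values were seen; likeness took the 5 highest and 3 lowest r with Bmal1 and with Dbp. An array stood apart if its mean correlation with the others was over 3 scaled median absolute deviations below the median. The fits were tested on simulated data. Correlations ran in Python 3.11.15 (scipy 1.17.1, pandas 2.3.3, numpy 2.4.6), figures in matplotlib 3.10.9.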

Additional observations from a re-analysis of the deposited data

How the results depend on the processing

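The 10 clock genes gave 0 limma calls in every setting tried: a filter at the 60th percentile (which Bmal1 and Nr1d1 did not pass) or none, median centring, cyclic loess, array weights, a robust fit with trend, a block for run, 4 scores as covariates, the 3 arrays that stood apart left out, the mean of all probe sets of a gene, 1 probe set per gene, runs 2 and 3 only, and each animal left out. The choroid plexus score and runs 2 and 3 were chosen after seeing the data. Nfil3, Dbp, Nr1d2, Bmal1, Clock and Per1 kept their direction in all of these. Small differences turned: Cry2 was at -0.0016 with cyclic loess, -0.011 with the myelin score, -0.0097 with the astrocyte score, -0.02 without the arrays that stood apart, -0.031 in runs 2 and 3 and between -0.013 and 0.041 with single animals left out. Nr1d1 was at -0.062 with the myelin and -0.010 with the choroid plexus score and between -0.021 and 0.065 with single animals left out. Per2 was at 0.018 with the choroid plexus score, and Per3 at 0.044 with the mean of its probe sets and 0.047 in runs 2 and 3. The cause was not tested. The count of called probe sets over the whole array was 4, against 2 with the filter at the 60th percentile, 23 with array weights, 0 with the myelin score, the astrocyte score, 1 probe set per gene or runs 2 and 3 (limma; 2266, 805, 1278 and 1238 at an unadjusted p under 0.05 in that order), 1 with the pan-neuronal or choroid plexus score, and 1 to 8 with single animals left out. Pairs of clock genes past the adjusted permutation test numbered 0, and 0 to 2 with single animals left out. The arm correlation lay between 0.22 (pan-neuronal score) and 0.56 (centred on run and group), and between 0.09 and 0.50 with single animals left out. No paired analysis was possible because no animal number occurs in both groups.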
